A study of Brassica rapa with 23 samples.

Results

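*BraNHL10* is the *Brassica rapa* gene Bra017272, which the study named as the homolog of the Arabidopsis gene *NHL10* and followed by quantitative PCR as a marker of pattern-triggered immunity. It was chosen by its identifier, and it is 1 gene of the 41020 listed in every expression table. RNA-Seq was run on leaf discs of wild-type Norang, a Chinese cabbage cultivar (*B. rapa* ssp. *pekinensis*), cut from the 1st true leaf of plants 17 days old. The discs were kept for 30 or 180 min in water alone, in 100 µg/ml chitin or in 100 nM flg22, and all groups shared the genotype, tissue, growth conditions and carrier. There were 5 water libraries at 30 min, 6 water libraries at 180 min, and 3 libraries for each elicitor and time, 23 in all. Up to 2 water libraries of a time carried the same replicate number, so water libraries are named here by replicate number and library number (2-s13 is replicate 2, library 13). The study describes a separate water control for each elicitor, with 1 library shared between them at 30 min. The labels do not say which water library belonged to which, so here all water libraries of a time served as the control for both. The study gives mapped reads for each control. In every pair with a shared replicate number, sequencing depth orders as these do if the flg22 control has the lower library number. This order was not used to form groups. The labels call the replicates biological but do not say whether water libraries with the same number came from separate plants, so part of the spread behind the p-values may be technical.

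NHL10 belongs to the NDR1/HIN1-like family, named after Arabidopsis NDR1, a membrane protein needed for some disease resistance, and tobacco HIN1, a gene induced by harpin. In Arabidopsis, transcripts of *NHL10* accumulate soon after a microbe-associated molecular pattern (MAMP) is perceived, and the gene is a well-characterised marker of this early response. Chitin, a polymer of fungal cell walls, is perceived there by the LysM receptor kinases LYK5 and CERK1, and flg22, a peptide of bacterial flagellin, by the receptor kinase FLS2.

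In the deposited tables Bra017272 lies on chromosome A04, plus strand, 15740520 to 15741203 of the *B. rapa* chromosome v1.5 build, a span of 684 bases. The tables give 1 level per gene and no exon structure. The 2 primers below, with which the study amplified *BraNHL10*, are shown because they define the transcript that was followed under this name.
BraNHL10_qPCR_F: ttcaacgccggagagttacg
BraNHL10_qPCR_R: tccccaagcttaaacctaaccc
The forward primer has 20 bases and 55% GC, and the reverse primer has 22 bases and 50% GC.

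*BraNHL10* was expressed at a low level in water and was strongly upregulated by both elicitors at both times. The highest level was reached after 30 min of flg22, and the level under either elicitor was lower at 180 than at 30 min. Levels are given in FPKM, the number of fragments scaled to transcript length and to all mapped fragments of the library. In water at 30 min the 5 libraries had 13.2 FPKM (1-s1), 9.63 FPKM (2-s9), 4.17 FPKM (2-s13), 14.9 FPKM (3-s17) and 3.02 FPKM (3-s21), a mean of 8.98 ± 5.29 (SD, n = 5). In water at 180 min the lowest of 6 libraries had 3.12 FPKM, the median was 4.93 and the highest had 17.5, with a mean of 7.31 ± 5.63 (SD, n = 6). The ranges of the water libraries at both times overlapped nearly throughout.

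After 30 min of chitin, *BraNHL10* had 697 FPKM in replicate 1, 383 in replicate 2 and 294 in replicate 3, a mean of 458 ± 212 (SD, n = 3). After 30 min of flg22 it had 961, 1094 and 977 FPKM in replicates 1, 2 and 3, a mean of 1010.4 ± 72.5 (SD, n = 3). Each library of either elicitor was above all 5 water libraries, and each flg22 library was above all 3 chitin libraries. The spread among replicates was wider in chitin, with a coefficient of variation of 46.2% against 7.18% in flg22. After 180 min of chitin the levels were 199.97, 213 and 93.9 FPKM, a mean of 169 ± 65.5 (SD, n = 3). After 180 min of flg22 they were 94.3, 84.4 and 79.8 FPKM, a mean of 86.2 ± 7.41 (SD, n = 3). At 180 min all elicitor libraries again lay above all 6 water libraries, but the lowest chitin library, replicate 3, fell within the flg22 range. In bulk tissue, more expressing cells and more RNA per cell cannot be told apart.

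**Figure D1:**
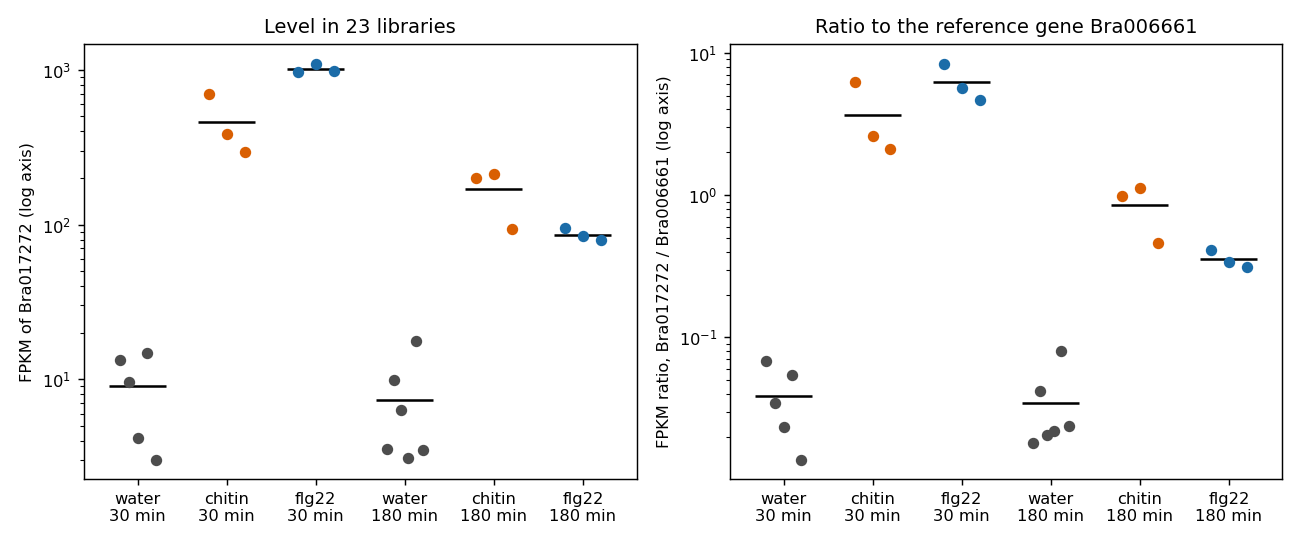
Left, FPKM of Bra017272 in each of the 23 libraries; right, the ratio of its FPKM to that of the reference gene Bra006661, both on log axes. Points are libraries and black lines are the mean of each condition. The 11 water libraries lie between 3.02 and 17.5 FPKM and the 12 elicitor libraries between 79.8 and 1094 FPKM.

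By mean FPKM the order was flg22 at 30 min, chitin at 30 min, chitin at 180 min, flg22 at 180 min, water at 30 min and water at 180 min. The mean of flg22 at 30 min was 2.21 times that of chitin at 30 min, which was 2.71 times that of chitin at 180 min, and the libraries of these neighbours did not overlap. Chitin at 180 min was 1.96 times flg22 at 180 min, with overlapping libraries. Flg22 at 180 min was 9.59 times water at 30 min, without overlap, and the 2 water means differed 1.23 times, with overlap. TPM, the same measure rescaled so that every library has the same total, gave the same order, with means of 1047 ± 96.8 for flg22 and 473 ± 227 for chitin at 30 min, 94.0 ± 8.26 for flg22 and 178 ± 69.8 for chitin at 180 min, and 9.31 ± 5.55 and 7.50 ± 5.92 for water at 30 and 180 min (SD, n as for FPKM).

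FPKM is corrected for gene length, so *BraNHL10* could be placed among all genes. By mean FPKM over the libraries of a condition it ranked 12629th of 41020 genes in water at 30 min and 14089th in water at 180 min, in the top 30.8% and 34.3%. After 30 min it ranked 336th in chitin, the top 0.819%, and 113th in flg22, the top 0.275%. After 180 min it ranked 873rd in chitin and 1941st in flg22, the top 2.13% and 4.73%. In single libraries the rank ran from 9902 to 17853 in water at 30 min and from 8662 to 18196 in water at 180 min. It ran from 181 to 532 in chitin and from 93 to 141 in flg22 at 30 min, and from 673 to 1772 in chitin and from 1744 to 2115 in flg22 at 180 min. A rank within a library does not depend on how libraries are scaled to each other. Much of the list was near or at 0, since 30.1% to 33.2% of genes had an FPKM of 0 in a library. In water the mean of *BraNHL10* was above that of the median gene with any signal, which had a mean FPKM of 5.83 at 30 min and 5.89 at 180 min, but at 180 min the median library, at 4.93 FPKM, was below it.

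**Figure D2:**
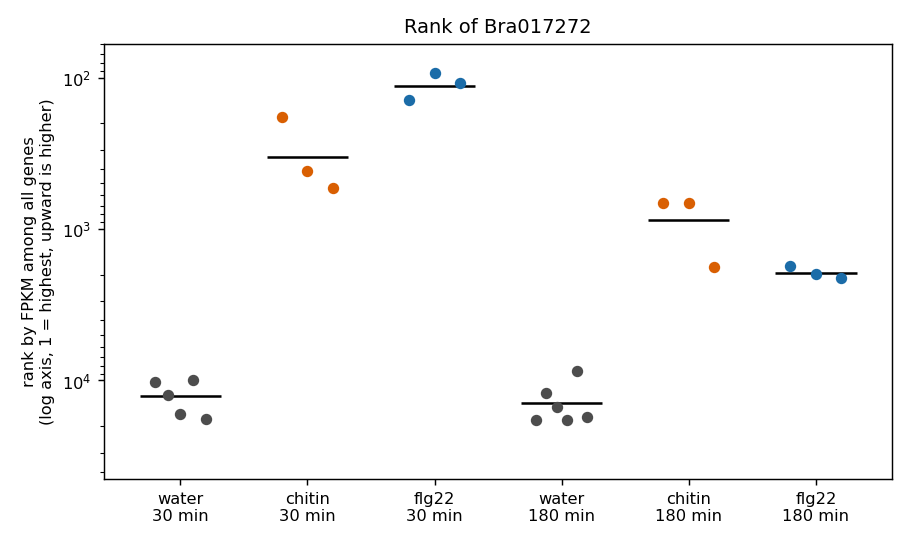
Rank of Bra017272 by FPKM among 41020 genes in each library, on an inverted log axis on which 1 would be the highest gene. Points are libraries and black lines are the rank of the mean over the condition. The rank of the mean moves from 12629 in water to 113 in flg22 at 30 min, and stands at 1941 in flg22 at 180 min.

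Each elicitor was compared with water of the same time with limma on log2(FPKM + 1) over the 24384 genes that reached 1 FPKM in at least 3 libraries, with p-values adjusted by Benjamini-Hochberg over all of them. A gene was called when it changed at least 2-fold with an adjusted p under 0.05, and a fold change on this scale understates the change of genes with low levels. Chitin raised *BraNHL10* at 30 min by 5.62 ± 0.48 on the log2 scale (SE, 49.3-fold, limma, adjusted p = 5.77e-09). Of all tested genes 8.16% were called higher in this comparison, and *BraNHL10* had the 45th highest change. Flg22 raised it at 30 min by 6.86 ± 0.48 (SE, 116-fold, limma, adjusted p = 1.75e-10), the 34th highest change, where 9.55% of genes were called higher. At 180 min the rise was 4.50 ± 0.46 in chitin (SE, 22.7-fold, limma, adjusted p = 1.80e-07), the 22nd highest change, with 9.1% of genes called higher. It was 3.62 ± 0.46 in flg22 (SE, 12.3-fold, limma, adjusted p = 6.32e-06), the 30th highest, with 6.53% of genes called higher.

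The median change over all tested genes was not 0 in the deposited scaling. On the log2 scale, chitin had a median of -0.46 and flg22 one of -0.47 at 30 min, and at 180 min they had -0.12 and 0.01. When the libraries were scaled to a common median ratio these medians moved to -0.04, -0.05, -0.00 and 0.01, and the change of *BraNHL10* became 6.12, 7.37, 4.62 and 3.60. With that scaling, 11.3% and 12.8% of genes were called higher at 30 min and 10.6% and 6.42% at 180 min. In chitin at 30 min the calls went from 1990 higher and 2424 lower to 2744 and 844, and in flg22 at 30 min from 2328 and 3832 to 3120 and 1638. At 180 min they went from 2220 and 3310 to 2582 and 2612 in chitin.

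Both elicitors were then compared with each other. The study had a separate water control for each elicitor. Any difference between the sets of discs cannot be told apart here from that between elicitors. At 30 min *BraNHL10* was lower in chitin than in flg22 by a log2 difference of -1.23 ± 0.54 (SE, 95% interval -2.35 to -0.12), which did not pass the threshold (limma, Benjamini-Hochberg adjusted p = 0.275), although the 3 libraries of each did not overlap. Of all genes 0.857% were called in either direction. The difference passed when water libraries were averaged by replicate number (limma, adjusted p = 0.04999), which leaves its size as it was. At 180 min the difference was 0.88 ± 0.54 (SE, 95% interval -0.24 to 1.99), with chitin the higher, and did not pass either (limma, adjusted p = 0.299, 4.5% of genes called).

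Between 30 and 180 min, *BraNHL10* fell by 3.54 ± 0.54 on the log2 scale in flg22 (SE, limma, adjusted p = 1.05e-05), to 0.0861 times its level at 30 min, where 10.7% of genes were called lower. In chitin it fell by 1.42 ± 0.54 (SE, limma, adjusted p = 0.0259), to 0.373 times, where 12.1% of genes were called lower. The call in chitin was lost without chitin at 30 min replicate 1, the highest of its group, where the change was -1.07 (adjusted p = 0.118), and without chitin at 180 min replicate 3, the lowest of its group, where it was -1.05 (adjusted p = 0.128). In water the change was -0.30 ± 0.40 (SE, 95% interval -1.13 to 0.52, limma, adjusted p = 0.724, 3.65% of genes called). With median-ratio scaling, genes called over time went from 4086 higher and 2961 lower to 2095 and 4451 in chitin, and from 5011 and 2611 to 2097 and 4078 in flg22.

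The response to each elicitor, meaning its difference from water of the same time, was compared between times. The response to flg22 was smaller at 180 than at 30 min by 3.23 ± 0.67 on the log2 scale, a value of -3.23 (SE, limma, adjusted p = 0.000487), and 8.72% of genes were called lower in this comparison. For chitin the same difference was -1.12 ± 0.67 (SE, 95% interval -2.51 to 0.27, limma, adjusted p = 0.174), where 22.2% of genes were called in either direction. The change from 30 to 180 min in chitin minus that in flg22 was 2.11 ± 0.76 (SE, 95% interval 0.54 to 3.69) and missed the threshold (limma, adjusted p = 0.0892, 5.87% of genes called). It passed without chitin at 30 min replicate 1 (2.46, adjusted p = 0.0446) and without chitin at 180 min replicate 3 (2.49, adjusted p = 0.0481). With median-ratio scaling the calls in the first of these comparisons went from 4208 higher and 2126 lower to 1699 and 3389, in the second from 3106 and 2308 to 1456 and 3528, and in the third from 675 and 757 to 982 and 447.

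**Figure D3:**
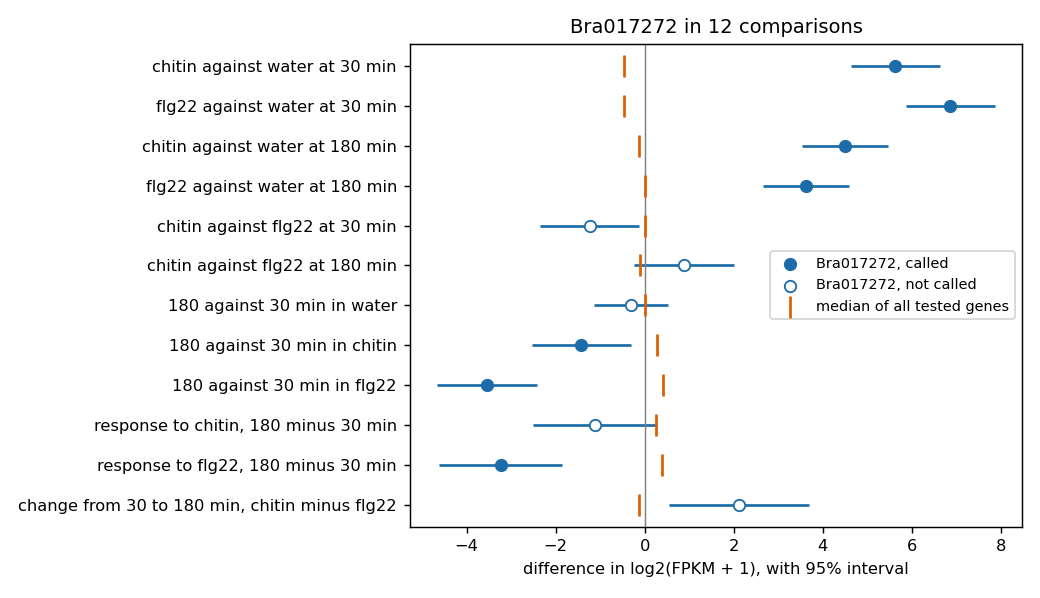
Difference in log2(FPKM + 1) of Bra017272 in 12 comparisons, with 95% intervals from limma. Filled points were called and open points were not, and vertical ticks give the median of all 24384 tested genes. The 4 comparisons of an elicitor with water run from 3.62 to 6.86, far to the right of the ticks.

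The water libraries set the baseline of these changes, and the coefficient of variation of *BraNHL10* among them was 58.8% at 30 min and 77.1% at 180 min, against 19.8% and 30.1% for Bra006661, the reference gene described below. Where a replicate number held 2 water libraries of a time, they may be the controls of different elicitors, and the level differed 2.31-fold in replicate 2 (2-s9 over 2-s13) and 4.92-fold in replicate 3 (3-s17 over 3-s21) at 30 min, with the levels given above. At 180 min it differed 2.80-fold in replicate 1 (9.86 FPKM in 1-s7 and 3.53 in 1-s3), 2.03-fold in replicate 2 (6.33 in 2-s11 and 3.12 in 2-s15) and 5.05-fold in replicate 3 (17.5 in 3-s19 and 3.48 in 3-s23). After division by the FPKM of Bra006661 these folds were 1.48 and 3.93 at 30 min and 2.30, 0.929 and 3.36 at 180 min. When only 1 water library per replicate number was kept, in each of the 32 possible choices, the rise in chitin lay between 5.002 and 6.01 at 30 min and between 3.81 and 5.19 at 180 min, and that in flg22 between 6.24 and 7.24 and between 2.93 and 4.32. All 32 choices gave a call in these 4 comparisons. The 32 combine 4 choices at 30 min with 8 at 180 min, so a change against water has only that many separate estimates. The change over time in water lay between -1.62 and 0.77 and was called in 2 of the 32 choices, and the difference between the 2 responses to chitin lay between -2.20 and 0.19 and was called in 2.

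The spread among water libraries also bears on the comparison of the 2 elicitors through their responses. In a calculation chosen after seeing the data, each elicitor was set against its own set of water libraries, in every division that the replicate numbers allow, with no test. At 30 min the response to chitin minus that to flg22 ran from -2.24 to -0.23 over the 4 divisions, where the direct difference was -1.23. At the highest of these values the responses were 6.01 for chitin and 6.24 for flg22, and at the lowest 5.002 and 7.24. The highest value came from the division with 2-s9 and 3-s17 set against flg22, to which the sequencing depths point. At 180 min the response to chitin minus that to flg22 ran from -0.50 to 2.26 over 8 divisions and was below 0 in 1 of them. The division to which the depths point was at neither end of this range.

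The study normalised its PCR to Bra006661, annotated by it as *BraEF1α*, which encodes a translation elongation factor. This gene lies on chromosome A03, minus strand, 4509393 to 4510826. Its FPKM was 228 ± 45.3 in water (SD, n = 5), 133 ± 17.7 in chitin (n = 3) and 172 ± 50.5 in flg22 (n = 3) at 30 min, and 208 ± 62.7 (n = 6), 199 ± 8.52 (n = 3) and 244 ± 13.6 (n = 3) at 180 min. At 30 min all 3 chitin libraries were below all 5 water libraries, a mean log2 difference of -0.77 ± 0.17 (SE, two-sided exact permutation test, p = 0.0357, the smallest the design allows, and 0.225 adjusted over 9 comparisons). This difference is in the deposited scaling, where the median gene also fell, by -0.46. With median-ratio scaling the change of Bra006661 at 30 min was -0.26 in chitin and 0.09 in flg22, and neither was called. The ratio of *BraNHL10* to this gene was 0.0389 ± 0.0221 (SD, n = 5) in water, 3.64 ± 2.22 (n = 3) in chitin and 6.24 ± 1.92 (n = 3) in flg22 at 30 min. At 180 min it was 0.0343 ± 0.0239 (n = 6) in water, 0.856 ± 0.351 (n = 3) in chitin and 0.355 ± 0.0514 (n = 3) in flg22. All libraries of each elicitor were above all water libraries of the same time by this ratio as well.

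On the log2 scale the ratio was higher than in water by 6.60 ± 0.63 in chitin and 7.50 ± 0.48 in flg22 at 30 min (SE, two-sided exact permutation test, p = 0.0357 each), and by 4.76 ± 0.52 and 3.59 ± 0.35 at 180 min (p = 0.0238 each). These are the smallest p-values that 3 libraries against 5 or 6 allow, and each became 0.0804 when adjusted over the 9 comparisons by Benjamini-Hochberg. Between chitin and flg22 the ratio differed by -0.90 ± 0.53 at 30 min (SE, exact permutation test, p = 0.3), where replicate 1 of chitin, with a ratio of 6.19, was above replicates 2 and 3 of flg22, with 5.63 and 4.69. Replicate numbers did not clearly pair chitin with flg22 at 30 min. Between libraries of the same number the ratio was lower in chitin in all 3 cases, with 6.19 against 8.38, 2.62 against 5.63 and 2.12 against 4.69. At 180 min it differed by 1.18 ± 0.42 (exact permutation test, p = 0.1), where the lowest chitin ratio, 0.459, was above the highest flg22 ratio, 0.413. From 30 to 180 min it changed by -2.03 ± 0.62 in chitin and by -4.10 ± 0.27 in flg22 (exact permutation test, p = 0.1 each), without overlap between times. With 3 libraries against 3 no p under 0.1 was possible. In water the ratio changed by -0.18 ± 0.53 (exact permutation test, p = 0.727).

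The genes with the pattern most like *BraNHL10* were found by Pearson correlation of log2(FPKM + 1) over the 23 libraries, as a description. The 10 closest were Bra039219, Bra008237, Bra000513, Bra031287, Bra032232, Bra013922, Bra023127, Bra037595, Bra004193 and Bra027849, with r between 0.987 and 0.990. None lay on chromosome A04. Libraries of 1 condition share their treatment, which feeds into every such r, and 734 genes, 3.01% of those tested, had an r of at least 0.9. Within conditions, the deviations of these 10 genes from the condition means correlated with those of *BraNHL10* with r between 0.766 and 0.901, where the median over all tested genes was 0.226 and the 95th percentile was 0.731. The deviations share library, depth and scaling, and the choice of these genes over the same libraries favours a high r.

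The levels of these 10 genes differed widely. Bra000513 had 20.7 to 45.8 FPKM in water at 30 min, 341 to 506 in chitin and 855 to 941 in flg22, and at 180 min 12.3 to 53.9 in water, 161 to 336 in chitin and 174 to 266 in flg22. Bra027849 was the lowest under the elicitors at 30 min, with 0.394 to 2.13 FPKM in water, 11.0 to 27.4 in chitin and 21.2 to 30.7 in flg22 at 30 min. The median changes of the 10 were 3.89 in chitin and 4.79 in flg22 at 30 min and 3.28 and 2.28 at 180 min on the log2 scale, each below that of *BraNHL10*. All 10 were called higher in these 4 comparisons and lower from 30 to 180 min in flg22, which their choice by pattern favours. From 30 to 180 min in chitin 3 of the 10 were called lower, beside 12.1% of all tested genes, and 10 of 10 with median-ratio scaling, beside 18.3%.

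**Figure D4:**
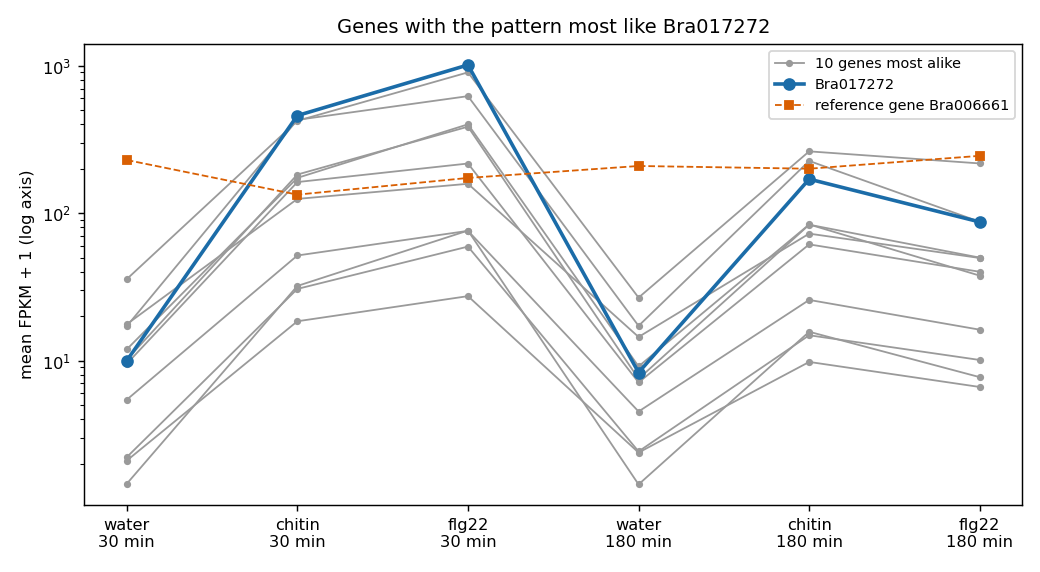
Mean FPKM plus 1 (log axis) over the libraries of each condition for Bra017272, the 10 genes with the pattern most like it and the reference gene Bra006661. Lines join the means of 1 gene and are not a time course. Bra017272 has the highest mean of the 11 genes in flg22 at 30 min, at 1010.4 FPKM, but not in water or at 180 min.

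Receptor homologs that the study lists act upstream of marker genes in Arabidopsis, and their levels were set beside those of *BraNHL10*. Of the 12, 9 were tested, and of the other 3, Bra006560 (EFR) and Bra022032 (FLS2) were listed at 0 in all 23 libraries and Bra017956 (LYM1) stayed under 0.968 FPKM. Calls for higher levels numbered 2 of 9 in chitin and 2 in flg22 at 30 min, and 5 in chitin and 3 in flg22 at 180 min, where 8.16%, 9.55%, 9.1% and 6.53% of all tested genes were. The median log2 change of the 9 was 0.49, 0.37, 1.26 and 0.51 in that order, and that of all tested genes was -0.46, -0.47, -0.12 and 0.01. One gene, Bra016402, a homolog of the peptidoglycan-binding protein LYM1, was called lower, in chitin at 180 min (-1.29), where 13.6% of all tested genes were. With median-ratio scaling 4 of 9 were called higher in each elicitor at 30 min, where 11.3% and 12.8% of all tested genes were, and 5 and 3 at 180 min, where 10.6% and 6.42% were.

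Bra021861, the homolog of the chitin receptor kinase LYK5, was the homolog nearest to *BraNHL10* in the size of its rise at 30 min. It went from 1.56 to 3.80 FPKM in water to 61.1 to 106 in chitin and 48.4 to 80.6 in flg22, a rise of 4.53 and 4.24 on the log2 scale. At 180 min it had 1.15 to 3.75 FPKM in water, 8.24 to 10.8 in chitin, a rise of 1.74, and 1.00 to 2.54 in flg22, a value of -0.16. In flg22 at 180 min *BraNHL10* stayed above water while the levels of Bra021861 overlapped those of the water libraries, and its lowest flg22 library was below them all. Bra031293, the homolog of CERK1, the LysM kinase of the chitin receptor complex, rose by 1.83 in chitin and 2.00 in flg22 at 30 min and by 1.49 in chitin at 180 min, and its value in flg22 at 180 min was 0.96. Bra017563, the FLS2 homolog with signal, had 2.54 to 8.63 FPKM in water and 3.18 to 4.44 in flg22 at 30 min, and was not called in any comparison with water (-0.54, -0.41, -0.23 and 0.02).

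At 180 min, homologs of LYM2, a chitin-binding LysM protein, and of LORE, a receptor kinase for bacterial acyl compounds, were among those that rose. The LYM2 homolog Bra009660 rose by 2.12 in chitin and 1.45 in flg22, and the LORE homolog Bra031434 by 1.66 and 1.04. At 30 min neither was called with the deposited scaling, where Bra009660 had 0.93 and 0.96 and Bra031434 had 0.49 and 0.84. With median-ratio scaling Bra009660 was called in both elicitors at 30 min and Bra031434 in flg22. The other LYM2 homolog, Bra002021, was called in chitin at 180 min (1.26) but not in flg22 (0.51). At 30 min it was not called with the deposited scaling (0.80 and 0.37), but was in chitin with median-ratio scaling (1.24). The EFR homolog Bra002305, a receptor of the elongation factor Tu peptide elf18, rose in flg22 at 180 min by 1.23, at levels of 2.52 to 3.54 FPKM.

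The study lists PCR primers for 7 further genes besides the reference. All 7 were tested, and most had been chosen by the study on these libraries, so their direction is not independent evidence. The numbers called higher were 2 of 7 in chitin and 2 in flg22 at 30 min, and 5 and 4 at 180 min, beside 8.16%, 9.55%, 9.1% and 6.53% of all tested genes. Those called lower were 2, 1, 1 and 1, beside 9.94%, 15.7%, 13.6% and 8.96% of all tested genes. Bra010367, for which the sources used here give no name, also peaked in flg22 at 30 min, with 767 to 934 FPKM against 222 to 523 in chitin and 0.0316 to 1.59 in water. It had 57.2 to 98.9 FPKM in chitin and 5.39 to 16.3 in flg22 at 180 min, a log2 difference of 2.87 between elicitors that was called, where *BraNHL10* had 0.88. Bra031321, likewise without a name, differed little between elicitors and times, with log2 differences between -0.33 and -0.03 that were not called, and had 108 to 243 FPKM in chitin and 109 to 242 in flg22 at 30 min and 103 to 145 and 98.7 to 160 at 180 min. The endochitinase gene Bra000310, whose enzyme class cleaves chitin, was called higher in chitin at 180 min only among the 4 comparisons with water (2.36, against 0.61 in flg22 at that time, and 0.21 and 0.13 in chitin and flg22 at 30 min).

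The chromosomal neighbours of *BraNHL10* did not move with it as a block. The nearest gene on the same strand, Bra017273, ends 481 bases before it and was listed at 0 in all 23 libraries. The next gene downstream, Bra017271, lies on the minus strand after a gap of 1949 bases and stayed under 0.464 FPKM. No other listed gene overlapped *BraNHL10*. Of the 10 genes on each side, 10 of 20 were tested. In chitin and flg22 at 30 min 2 of 10 were called higher in each, and 2 and 3 were called lower, and at 180 min 2 and 2 were called higher and 3 and 1 lower. Over all tested genes 8.16% and 9.55% were called higher at 30 min and 9.1% and 6.53% at 180 min, and 9.94%, 15.7%, 13.6% and 8.96% were called lower. The median log2 change of the 10 was -0.43 and -0.41 at 30 min, close to the medians over all tested genes, -0.46 and -0.47, and 0.24 and 0.00 at 180 min. Bra017278, 50344 bases away, had 42.3 to 131 FPKM in water and 254 to 363 in chitin and 302 to 326 in flg22 at 30 min, a rise of 2.30 and 2.35 on the log2 scale. The other neighbour called higher at 30 min was Bra017264, 42081 bases away, which was listed at 0 in all 11 water libraries and had 313 to 350 FPKM in chitin and 493 to 537 in flg22 at 30 min. At 180 min it was listed at 0 in all 3 flg22 libraries and in 1 of 3 chitin libraries, with at most 46.0 FPKM. Why it is listed at exactly 0 beside such levels was not tested. Bra017263 next to it on the minus strand fell by 2.19 in chitin and 2.75 in flg22 at 30 min, and Bra017277 fell by 2.13 and 1.82.

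**Figure D5:**
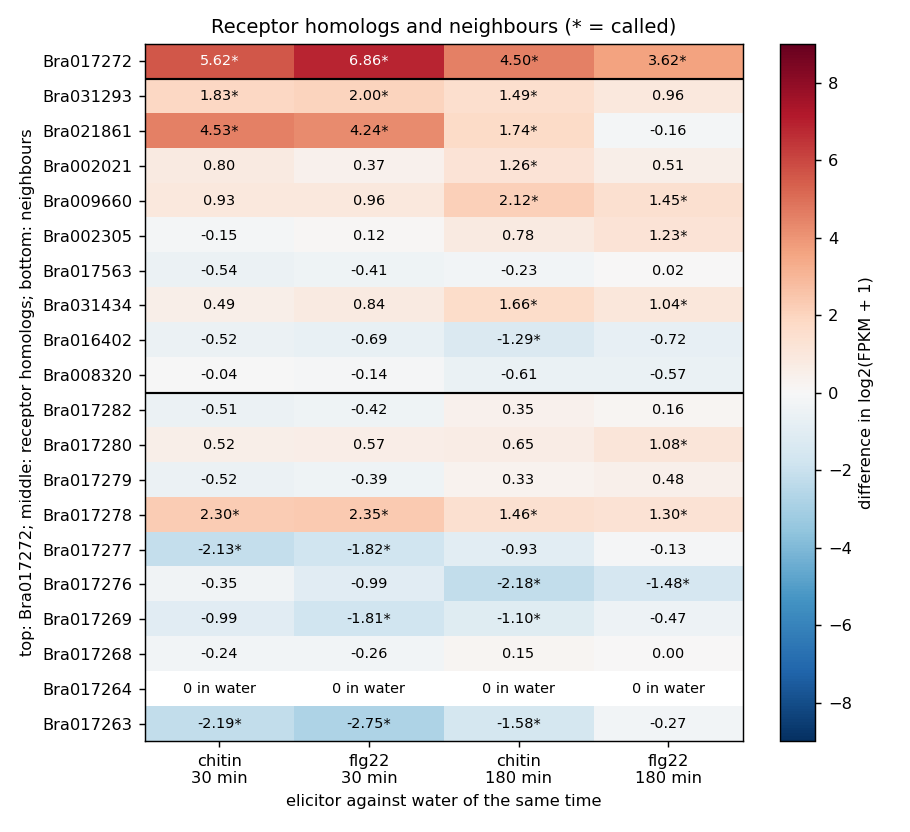
Change against water of the same time, as a difference in log2(FPKM + 1), for Bra017272 (top), 9 tested receptor homologs (middle) and 10 tested neighbours in chromosomal order (bottom). Stars mark calls, and Bra017264 is shown without a value because it was listed at 0 in water. No receptor homolog shown exceeds 4.53, where Bra017272 reaches 6.86.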

How the data were processed

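RNA-Seq libraries (TruSeq Stranded mRNA) were made from 23 samples. Per the methods of the study and the submitters' processing notes, reads were trimmed with Trimmomatic 0.36, aligned with HISAT2 (version not given in the sources used here) to version 1.5 of the *B. rapa* chromosomes and quantified with StringTie 2.0, and DESeq2 is also named. The authors deposited 1 table per library with FPKM, TPM and mean read coverage per gene for 41020 genes. No read counts were used here, so no count model was fitted. The deposited coverage divided by FPKM gave 4.09 to 5.64 aligned gigabases per library. This depth puts the lowest level of Bra017272 in water, 3.02 FPKM, at a coverage of 15.0, and the spread between libraries, not a counting interval, is given as its error.

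Groups came from the treatment and time labels. FPKM was tested as log2(FPKM + 1) with limma 3.58.1 (R 4.3.3) with a mean-variance trend, 1 coefficient per condition, all 23 libraries in 1 fit, 24384 genes with at least 1 FPKM in at least 3 libraries, and Benjamini-Hochberg adjustment. The ratio to Bra006661 was tested by two-sided exact permutation over libraries (SciPy 1.17.1). The scripts were tested on simulated data. Genes other than Bra017272 were named by rule: the reference gene, the 10 most correlated genes, the receptor homologs and PCR genes of the study, and neighbours called in a comparison with water. The gene and all lists were chosen with earlier results of these data known. Other NHL family genes were not analysed here.

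Same-numbered libraries deviated together from their condition means in chitin and water at 30 min (r of 0.469, 0.379 and 0.369 for replicates 1, 2 and 3). They also did in flg22 and water at 30 min (0.242, 0.422 and 0.312), so that the numbers paired each elicitor with water at 30 min. In chitin and flg22 at 30 min (0.325, 0.215 and 0.024) chitin replicate 2 was closest to flg22 replicate 3, so pairing was not clear. In chitin and water at 180 min (0.506, 0.148 and 0.163) chitin replicate 3 was closest to water replicate 2, so pairing was not clear. In flg22 and water at 180 min the numbers did not pair the samples (-0.05, -0.00 and 0.18). Alternatives were other pseudocounts, scalings, filters, units, a replicate block, other uses of the water libraries (a division between elicitors was chosen after seeing the data) and each library left out.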

Additional observations from a re-analysis of the deposited data

Results flagged for a closer look

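The response of Bra017272 to flg22 differed between times by a test of the difference itself. It was smaller at 180 than at 30 min by a log2 value of -3.23 (limma on all 23 libraries, Benjamini-Hochberg adjusted p = 0.000487), and all 3 flg22 libraries were above all water libraries at both times.

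Among 44 groups of water libraries tested for a single library far from the rest (22 genes and ratios at 2 times), 3 held one, where chance gives about 5%. All 3 were library 3-s19 in water at 180 min, for genes with the pattern most like Bra017272. It had 1.99 FPKM of Bra039219, against 0 to 0.246 in the other 5 libraries, 16.6 FPKM of Bra032232 against 2.75 to 5.12, and 22.3 FPKM of Bra023127 against 8.23 to 13.5. Bra017272 itself had its highest water level in the same library, 17.5 FPKM, without passing the test for a distant value. The 3 genes were chosen for their likeness to Bra017272 over these libraries. Their high values are therefore not independent of it or of each other.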

How the results depend on the processing

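Outside the settings that left out 1 library and the divisions of the water libraries between elicitors, the change of Bra017272 stayed on its side of the threshold in 123 of 132 values, and all alternatives kept the calls of both elicitors against water at both times, of the fall from 30 to 180 min in flg22 and of the smaller response to flg22 at 180 min. With a replicate block, these and all other calls of the gene were the same (5.57, 6.81, 4.50 and 3.62 for chitin and flg22 at 30 min and at 180 min, and -3.54 and -3.18 for the last 2). The cause was not tested for any call below that changed. Chitin against flg22 at 30 min (-1.23) passed with water averaged by replicate number and in 1 of 32 choices of 1 water library per number (adjusted p = 0.0471, limma). With each response set against its own set of water libraries, an alternative chosen after seeing the data and without a test, chitin minus flg22 ran from -2.24 to -0.23 at 30 min and from -0.50 to 2.26 at 180 min. At 30 min the division to which the sequencing depths point gave -0.23. With 1 water library per number at the lower end, the change over time in water was -1.62 and the response to chitin at 180 minus 30 min was -2.20, both called; the latter was also called as a ratio to Bra006661 (-1.88). The fall in chitin (-1.42) lost its call with no filter on low values, which tests more genes (adjusted p = 0.0592, limma), and lay between -1.70 and -1.05 with 1 library left out. The change over time in chitin minus flg22 (2.11) passed with only the conditions compared (adjusted p = 0.0217), with water averaged (0.00928) and in 13 of 32 choices (lowest 0.00667), and lay between 1.84 and 2.49 with 1 library left out. The ratio tests, the ranks and the list of genes most alike (10, 8 and 8 of 10 shared with TPM, median-ratio scaling and a pseudocount of 0.1) did not move beyond their spread or threshold.

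The counts of called genes moved more. With no fold threshold they were 5194 and 4625 higher (chitin and flg22 at 180 min), 338 and 2768 (chitin against flg22 at 30 and 180 min), 2783 (water over time), 5318 and 4026 lower (chitin and flg22 over time) and 11134 (response to chitin). With an unadjusted p there were 854 for chitin against flg22 at 30 min and 2507 for the change over time in chitin minus flg22. With no filter these were 123 and 952. As ratios to Bra006661 the counts were 3578 (chitin at 30 min), 1052 (flg22 at 180 min), 3 (chitin against flg22 at 30 min), 5875 and 4202 (chitin and flg22 over time), 3716 (response to flg22) and 245 (chitin minus flg22). With median-ratio scaling they were 4451, 4078 and 3389 for chitin and flg22 over time and the response to flg22. Chitin against flg22 at 30 min gave 0 genes with only the conditions compared, where the main fit gave 209, 475 with water averaged and 108 in 1 choice of water libraries. Choices of water libraries gave 144 to 2281 genes for water over time and up to 8153 for the response to chitin. With 1 library left out the counts ran from 40 to 462 and from 653 to 1196 for chitin against flg22 at 30 and 180 min, and from 796 to 2246 for chitin minus flg22.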
